A study of Rattus norvegicus with 96 samples.

Results

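Pomc, Avp, Hcrt and Cartpt encode precursors of hypothalamic neuropeptides, and their transcripts were followed through the ventral tegmental area (VTA), the nucleus accumbens (NAc) core and the NAc shell of F1 rats. The 4 genes were chosen by name out of the 17637 genes in the count table. Identifiers were taken from the study's tables of changed genes, which cover these samples and a self-administration experiment. Pomc is ENSRNOG00000012686, Avp ENSRNOG00000021229, Hcrt ENSRNOG00000018892 and Cartpt ENSRNOG00000017712. All 4 were among the 16879 genes tested. Rats were offspring of F344 and BN parents, with both directions of the cross spread over the groups, and 16 males and 16 females entered the transcriptomic arm. Within each sex, 8 rats received nicotine (NIC) at 0.4 mg/kg and 8 received saline (SAL) at 1.0 ml/kg, once a day for 4 days, and hand-dissected tissue was collected about 2 weeks later. RNA of whole tissue was sequenced, so fewer cells that make a transcript and less transcript in each cell cannot be told apart. Of 96 libraries, 94 were used, which gave 8 libraries to 10 of the 12 groups of sex, region and treatment and 7 to each of male VTA SAL and female NAc core NIC.

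A neuropeptide precursor is translated into the secretory pathway, cut at pairs of basic residues by the prohormone convertases encoded by Pcsk1 and Pcsk2, trimmed by Cpe and in many cases amidated by Pam. Pomc gives rise to melanocyte-stimulating hormone, adrenocorticotropin and beta-endorphin and is made mainly by neurons of the arcuate nucleus and by the pituitary. Avp encodes vasopressin, made by magnocellular and parvocellular neurons of the paraventricular and supraoptic nuclei, and Hcrt encodes the orexins (hypocretins), made by neurons of the lateral hypothalamus that project to the VTA and the NAc. The cell bodies that make these 3 precursors thus lie mostly outside the dissected regions. Cartpt, which encodes cocaine- and amphetamine-regulated transcript, is set apart here because medium spiny neurons of the NAc, the shell above all, make it as well as hypothalamic neurons.

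The 150 bases before the annotated start of each gene are printed to show what the 4 genes hold at their starts, with matches to TATAA (the core of a TATA box, either strand) and to TGACGTCA (the palindromic cyclic AMP response element) in capitals. They come from RefSeq on the GRCr8 build, which is not the Rnor version 6 build of the counts, and read 5′ to 3′ along the gene's strand. Pomc lies on the plus strand at chr6:32659203-32659352, Avp on the minus strand at chr3:138248523-138248672, Hcrt on the minus strand at chr10:86191525-86191674 and Cartpt on the minus strand at chr2:32991236-32991385.
Pomc: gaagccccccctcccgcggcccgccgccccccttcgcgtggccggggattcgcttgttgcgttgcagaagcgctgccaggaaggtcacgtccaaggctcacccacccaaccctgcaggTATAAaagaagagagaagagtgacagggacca
Avp: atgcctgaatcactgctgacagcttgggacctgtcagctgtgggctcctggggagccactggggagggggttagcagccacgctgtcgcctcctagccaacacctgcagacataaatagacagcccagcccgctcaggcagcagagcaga
Hcrt: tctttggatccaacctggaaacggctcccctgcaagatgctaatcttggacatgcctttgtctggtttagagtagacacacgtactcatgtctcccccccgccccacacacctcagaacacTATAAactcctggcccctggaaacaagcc
Cartpt: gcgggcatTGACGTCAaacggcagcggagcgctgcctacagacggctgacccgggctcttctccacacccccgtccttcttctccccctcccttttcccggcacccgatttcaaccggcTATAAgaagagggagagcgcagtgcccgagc
TATAA began 32 bases before the start in Pomc, 29 in Hcrt and 31 in Cartpt, and 15.2% of 33469 windows of this length hold it on either strand. Avp had no exact match in the window. TGACGTCA was found only in Cartpt, from 142 to 135 bases before the start, and 1.36% of the windows hold it; the motifs do not overlap. Such a match is a description of the letters.

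Library totals ran from 15868529 to 27736905 estimated counts, so that 1 CPM (counts scaled to library size) corresponded to 19.9 counts at the median depth. Pomc had between 19 and 508 counts and Cartpt between 17 and 2869, and both reached 10 counts in all 94 libraries. Avp (0 to 253 counts, median 7) reached 10 counts in 37 libraries and was at 0 in 5, and Hcrt (0 to 233, median 5) reached 10 in 28 and was at 0 in 10, so that most differences between their libraries lie within a few counts. The dissected region was checked with Th, tyrosine hydroxylase of dopamine neurons, and with Drd2, a dopamine receptor of striatal projection neurons. In 3 libraries these genes went against the label: female VTA NIC 2 had Th at 18.03 CPM where the other VTA libraries had 316 to 895, male NAc core SAL 1 had Drd2 at 8.31 CPM where the others had 28.7 to 314, and male NAc shell SAL 1 had 9.39 CPM where the others had 64.7 to 205. Comparisons of NIC with SAL, of regions and of sexes were repeated without these 3 libraries, and the values are given beside the results that moved most. The library labelled female NAc core NIC 1 had Th at 331 CPM and was left out.

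Whether NIC changed the 4 genes was asked in each sex and region. Avp was 13.4-fold higher in NIC than in SAL libraries of the female NAc shell, Hcrt 12.9-fold higher in the female VTA and 2.81-fold higher in the female NAc shell, and Pomc 2.56-fold higher in the male VTA, each by the fitted values. In the opposite direction, Hcrt in the female NAc core and Cartpt in the female NAc shell were lower, at 0.403 and 0.787 of the SAL level. These 6 of the 24 differences had an unadjusted p under 0.05 with edgeR's quasi-likelihood test, and none had a Benjamini-Hochberg adjusted p under 0.05 (lowest 0.466). DESeq2 also gave 0 adjusted and 6 unadjusted calls, and the 12 groups in one fit gave 2 adjusted and 5 unadjusted ones. Preparation batch as a covariate gave 0 adjusted and 4 unadjusted calls, without those of Hcrt in the female core and of Hcrt and Cartpt in the female shell. The 4 are thus not a subset of the 6. Of all 16879 genes, the 12-group fit called 2 in the female shell, 6 in the female VTA and 1 in the male VTA after adjustment. Its unadjusted calls ran from 743 in the male shell to 1990 in the female VTA. With batch as a covariate they ran from 295 in the female VTA to 2013 in the male shell. Within a sex and region, NIC and SAL libraries shared only preparation batch C in males and J in females, and also L in the female VTA. Treatment and batch thus largely cannot be told apart. Each of the 4 genes is named in the study's tables of changed genes, which cover these samples and a self-administration experiment. The 6 calls of the main test are thus a description and no independent evidence. In the edgeR fits within sex and region, 2.35% of all genes tested were higher with NIC at an unadjusted p under 0.05 in male VTA, 4.04% in female VTA and 5.25% in female NAc shell. In the same fits, 3.57% were lower in female NAc core and 4.88% in female NAc shell. In either direction, an unadjusted p under 0.05 was reached by 5.62% in male VTA, 9.83% in male NAc core, 2.46% in male NAc shell, 9.24% in female VTA, 6.45% in female NAc core and 10.1% in female NAc shell; an adjusted p under 0.05 was reached by 0% in each. NIC and SAL libraries overlapped in all 24 cases. A two-sided exact permutation test over all assignments of rats to the groups gave 4 p-values under 0.05, the lowest 0.0269, and none after adjustment over the 24 (lowest 0.222). No share over all genes stands beside the overlap or the exact test, so both describe the 4 genes only.

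**Figure D1:**
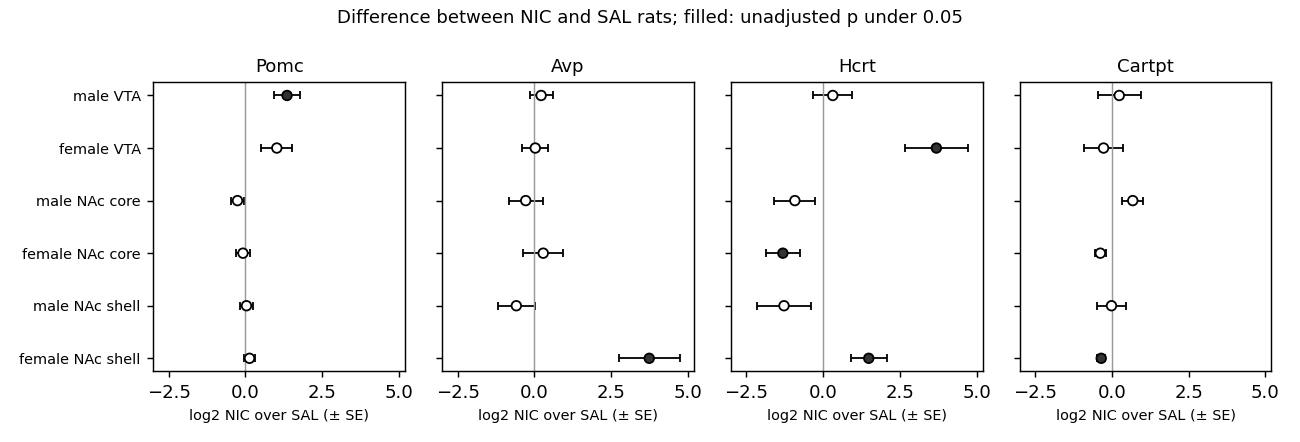
Fitted log2 difference between NIC and SAL libraries (x axis, with SE bars) for each of the 4 genes in each sex and region (y axis); filled points have an unadjusted p under 0.05. The widest departures from 0 are Avp in the female NAc shell (3.75) and Hcrt in the female VTA (3.69), and most other points lie within about 1 log2 unit of 0.

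Pomc was low and even outside the VTA and high in a few NIC libraries within it. In the NAc core it ran from 1.18 to 4.25 CPM and in the NAc shell from 1.33 to 3.84 CPM, with coefficients of variation of 29.5% and 27.0% over libraries. In the 15 VTA libraries of SAL rats it ran from 1.63 to 3.88 CPM (mean 2.89 ± 0.530, SD, n = 15). Male VTA NIC libraries had 2.43, 2.77, 3.23, 4.06, 5.74, 6.72, 17.4 and 17.7 CPM, in rats 15, 14, 11, 9, 12, 16, 13 and 10. Of these 8, 5 lay above the highest SAL library of their sex, and their median of 4.90 CPM stood against 2.91 CPM in SAL. The log2 difference was 1.35 ± 0.41 (SE; edgeR unadjusted p = 0.00453, adjusted p = 0.866; exact permutation p = 0.0421). Leaving out any 1 rat kept it between 1.03 (without NIC rat 10) and 1.49.

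In females the VTA difference in Pomc rested on a single library. Female VTA NIC rat 4 had 25.8 CPM, the highest Pomc value of the series, while the other 7 NIC libraries had 1.40 to 3.86 CPM and the SAL libraries 1.63 to 3.48 CPM. The log2 difference of 1.02 ± 0.50 (edgeR p = 0.0561, adjusted p = 0.548; exact permutation p = 0.497) was 0.01 without rat 4, and 1.11 (adjusted p = 0.650) without female VTA NIC 2, the library with little Th. The 5 highest VTA libraries, all from NIC rats, held 49.9% of all Pomc counts of the 31 VTA libraries. In preparation batch C, the only batch with male VTA libraries of both treatments, NIC rats 12 and 10 had 5.74 and 17.7 CPM and SAL rats 7 and 8 had 2.70 and 2.94 CPM. In the NAc of the 3 animals with the most Pomc in the VTA, male rat 10 had 2.39 CPM in the core and 1.56 CPM in the shell. Male rat 13 had 2.90 CPM in the core and 3.84 CPM in the shell, the highest of the 32 shell libraries (next 3.37 CPM). Female rat 4 had 2.21 CPM in the shell and 1.18 CPM in the core, the lowest Pomc value measured.

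Genes tied to the making and sensing of the Pomc peptides were looked at beside the high libraries. Female VTA NIC 4 had the highest VTA values of Pcsk1, a convertase that cuts the Pomc precursor (7.47 CPM against a next value of 5.04), and of Mc4r, a receptor of melanocyte-stimulating hormone (3.91 against 3.57 CPM). Male VTA NIC 13 had the highest VTA values of Trh (thyrotropin-releasing hormone, 9.60 CPM) and Gal (galanin, 10.8 CPM). Male VTA NIC 10 had Pmch, the precursor of melanin-concentrating hormone, at 1.71 CPM and female VTA NIC 4 at 2.24 CPM, inside the range of VTA libraries of SAL rats (0.734 to 2.90 CPM), and male VTA NIC 13 had 3.51 CPM, above it. Lhb, the beta subunit of luteinizing hormone and the only one of 9 pituitary genes that could be matched to an identifier, had a median of 2.79 CPM in NIC and 3.14 CPM in SAL libraries of the VTA. Mbp and Mobp, myelin genes of oligodendrocytes, had log2 differences of -0.25 ± 0.10 and -0.27 ± 0.10 between NIC and SAL in the male VTA (adjusted p = 0.866 for both), each with an unadjusted p under 0.05. Pcsk1 and the libraries set side by side were chosen after their values were seen, and the part of neighbouring tissue or of myelin content in the high Pomc values was not tested.

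Avp was near the counting floor in all regions save for 4 libraries. In the VTA it ran from 0.119 to 1.44 CPM (median 0.422), in the NAc core from 0 to 1.39 CPM (median 0.281), and in the 16 NAc shell libraries of SAL rats from 0 to 1.143 CPM (median 0.308). Female NAc shell NIC libraries split into high and low ones: rats 1, 8, 6 and 2 had 3.56, 5.76, 8.26 and 13.3 CPM, from 74, 119, 166 and 253 counts, and rats 3, 5, 7 and 4 had 0.0509 to 0.222 CPM, from 1 to 4 counts. Rats 1, 8, 6 and 2 held 77.2% of the Avp counts of the 32 NAc shell libraries. Each of these 4 lay above the highest female SAL library (1.10 CPM), and the other 4 within the SAL range. The log2 difference was 3.75 ± 0.99 (edgeR p = 0.00125, adjusted p = 0.466; exact permutation p = 0.0618), and between 3.15 and 4.41 when any 1 rat was left out. With all 12 groups in one fit the same difference had an adjusted p of 0.0030; over the other alternatives the adjusted p lay between 0.153 and 1.00. Of the 4 preparation batches of these NIC libraries, batch G held rats 1 and 2, both high (3.56 and 13.3 CPM), and batch H rats 3 and 4, both low (0.0509 and 0.221 CPM). Batch I held rats 6 (8.26 CPM) and 5 (0.0548 CPM), and batch J rats 8 (5.76 CPM) and 7 (0.222 CPM); the 2 SAL libraries of batch J had 0.0959 and 0.177 CPM.

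In the other regions of the same 4 rats Avp was low. In the VTA rats 1, 2, 6 and 8 had 0.549, 0.426, 0.422 and 0.921 CPM, inside the female SAL range, and in the NAc core rats 2, 6 and 8 had 0.281, 0.621 and 0 CPM. In males of the NAc shell, Avp ran from 0 to 0.579 CPM in NIC and from 0 to 1.143 CPM in SAL libraries, with a log2 difference of -0.58 ± 0.61. The interaction of sex and treatment in the NAc shell was 4.32 ± 1.23 on the log2 scale (adjusted p = 0.579), in a region where 8.07% of genes had an interaction with an unadjusted p under 0.05 and 0% with an adjusted one.

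Other transcripts separated the 4 libraries too. Trh, the precursor of thyrotropin-releasing hormone, was at 20.9, 18.4, 14.1 and 13.1 CPM in rats 2, 6, 1 and 8, and no other NAc shell library exceeded 9.17 CPM. Gal, the galanin precursor, was at 7.77, 7.47, 5.58 and 8.48 CPM in the same order of rats, and the next library had 4.78 CPM. The 4 highest values of Trh, of Gal and of Avp over 32 NAc shell libraries thus belonged to the same 4 rats, as did those of the vasopressin receptor Avpr1a (2.26 to 3.68 CPM, next 2.21 CPM). These libraries and genes were set side by side after their values were seen. Pmch, the precursor of melanin-concentrating hormone of the lateral hypothalamus, did not follow them: it ran from 1.83 to 2.73 CPM in the 4 libraries and up to 3.21 CPM in SAL libraries. The summed level of 7 striatal projection neuron genes was 2027, 1635, 1365 and 1296 CPM in rats 1, 2, 6 and 8, 1967 to 2813 CPM in the other female NIC rats and 2124 to 2940 CPM in female SAL rats. Rats 2, 6 and 8 thus lay below all other female NAc shell libraries, and rat 1 within the range of the other NIC rats. Mbp was at 9579, 7603, 8116 and 12693 CPM in rats 1, 2, 6 and 8, and at 5071 to 7817 CPM in female SAL rats. Mobp was at 689, 472, 510 and 876 CPM in the same order of rats, against 302 to 517 CPM in female SAL rats, so that rats 1 and 8 lay above the SAL range for both genes. What part the composition of the dissected tissue had in the Avp values was not tested.

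Hcrt had its highest value, 11.5 CPM from 233 counts, in female VTA NIC rat 7, which alone held 55.6% of the Hcrt counts of the VTA. Rats 6 and 2 of the same group had 1.27 and 1.24 CPM, the other 5 had 0.0484 to 0.343 CPM, and female SAL libraries had 0 to 0.313 CPM. The log2 difference was 3.69 ± 1.04 (edgeR p = 0.00231, adjusted p = 0.509; exact permutation p = 0.0569), and without rat 7 it was 1.77. Without female VTA NIC 2, which had the Th level noted above, it was 3.76 (adjusted p = 0.648). With all 12 groups in one fit the adjusted p was 0.0409, against 0.110 to 1.00 under the other alternatives. In males of the VTA, Hcrt ran from 0 to 0.785 CPM in NIC and from 0.0458 to 0.462 CPM in SAL, and the interaction of sex and treatment was 3.38 ± 1.28 (adjusted p = 0.374; 11% of genes had an unadjusted p under 0.05).

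Pmch, which is made by other neurons of the lateral hypothalamus than the orexin neurons, was at 192 CPM in female VTA NIC 7 and at 19.8 CPM in rat 6, whereas SAL libraries of the VTA ran from 0.734 to 2.90 CPM. Female VTA NIC 2 had Pmch at 1.02 CPM beside its Hcrt of 1.24 CPM. The log2 difference of Pmch in the female VTA was 3.70 ± 1.06 (adjusted p = 0.509). Rat 7 also had the highest VTA values of Tac1, the substance P precursor (58.4 CPM), and of Adcyap1, the precursor of pituitary adenylate cyclase-activating peptide (91.0 CPM), and its Th of 316 CPM was the lowest of the VTA after rat 2. Its choroid plexus genes summed to 104 CPM, the third highest of the VTA after female VTA NIC 2 (2633 CPM) and female VTA SAL 16 (903 CPM), whose Hcrt was at 0. In batch J, NIC rats 7 and 8 had Hcrt at 11.5 and 0.0484 CPM and SAL rats 9 and 10 had 0.211 and 0.0989 CPM. The part of tissue next to the VTA in these values was not tested.

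In the female NAc, the fitted Hcrt differences with treatment had opposite signs in core and shell, and neither passed adjustment. With preparation batch as a covariate, neither kept an unadjusted p under 0.05. Core libraries had a median of 0.285 CPM in NIC (0 to 0.666) and 0.867 CPM in SAL (0.0636 to 1.24), a log2 difference of -1.31 ± 0.55 (edgeR p = 0.0281, adjusted p = 0.750; exact permutation p = 0.0480). Shell libraries had a median of 0.973 CPM in NIC (0.221 to 3.08) and 0.414 CPM in SAL (0.0480 to 1.04), a log2 difference of 1.49 ± 0.59 (edgeR p = 0.0203, adjusted p = 0.466; exact permutation p = 0.0399). Without shell NIC rat 1, the highest at 64 counts and also 1 of the 4 rats with high Avp, it was 1.12 with an edgeR p of 0.0691. The core values rest on 22 counts or fewer in each library, and without NIC rat 5, NIC rat 2, SAL rat 10 or SAL rat 12 the core p rose to between 0.0513 and 0.0566. Male differences were -0.92 ± 0.67 in the core and -1.27 ± 0.87 in the shell. Leaving out 1 rat moved the core value between -1.38 (without NIC rat 13) and -0.59 (without SAL rat 6), and the shell value between -2.02 (without NIC rat 14, where the edgeR p fell below 0.05 and the adjusted p did not) and -0.75 (without SAL rat 7). The interaction in the shell was 2.76 ± 1.08 (adjusted p = 0.579). No test compared the core effect with the shell effect.

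**Figure D2:**
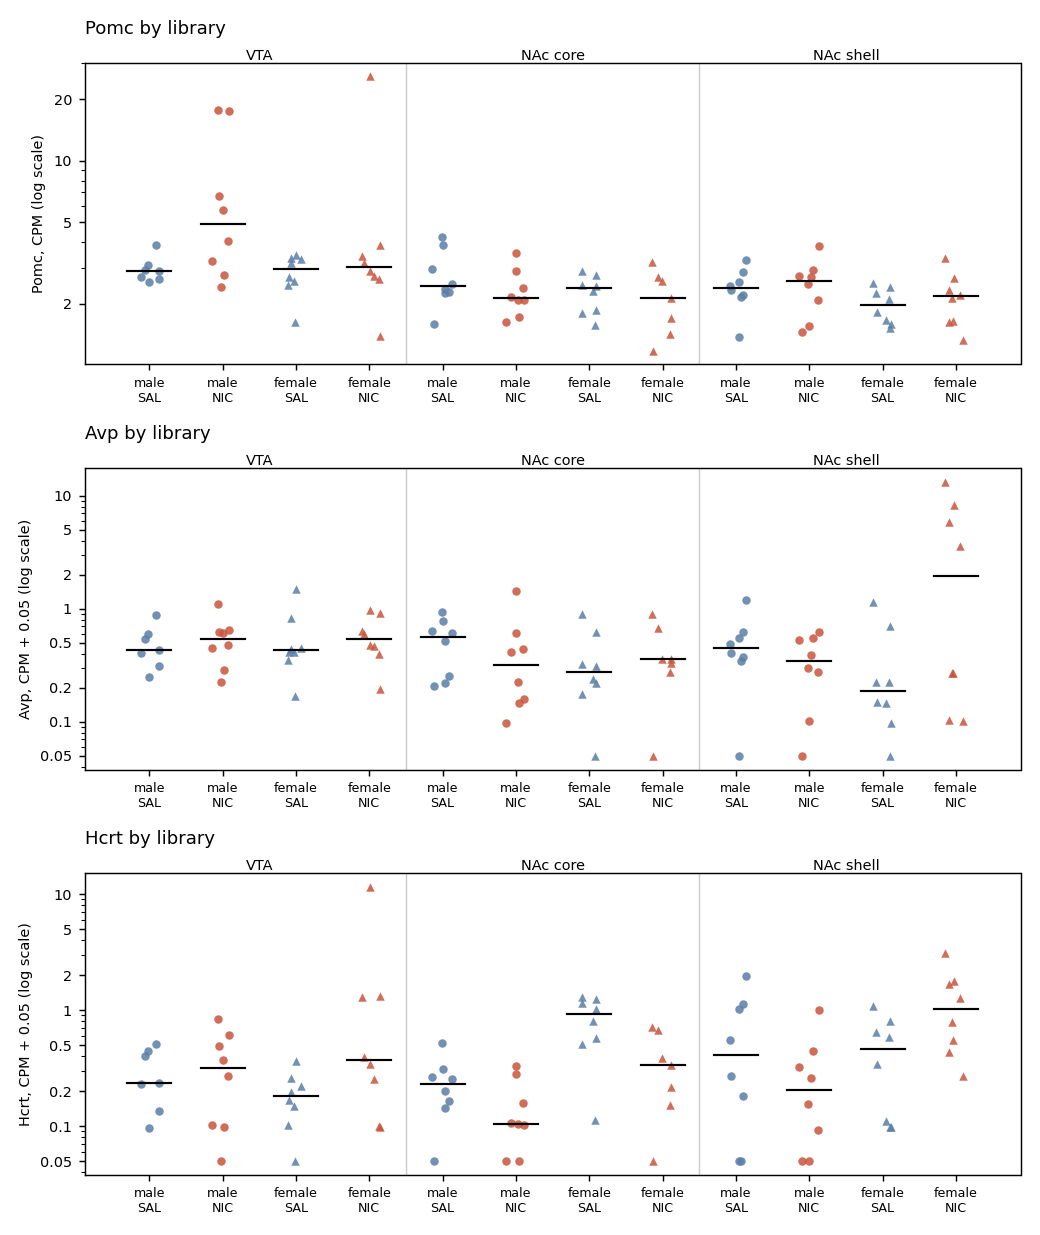
Level of Pomc (CPM), and of Avp and Hcrt (CPM plus 0.05 so that libraries at 0 can be drawn), in each of 94 libraries on log y axes, by region, sex and treatment (x axis); circles are males, triangles females, and black lines medians. Pomc leaves its narrow band only in 5 VTA libraries of NIC rats, Avp only in 4 libraries of the female NAc shell NIC group, and Hcrt most in 1 female VTA NIC library at 11.5 CPM.

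**Figure D3:**
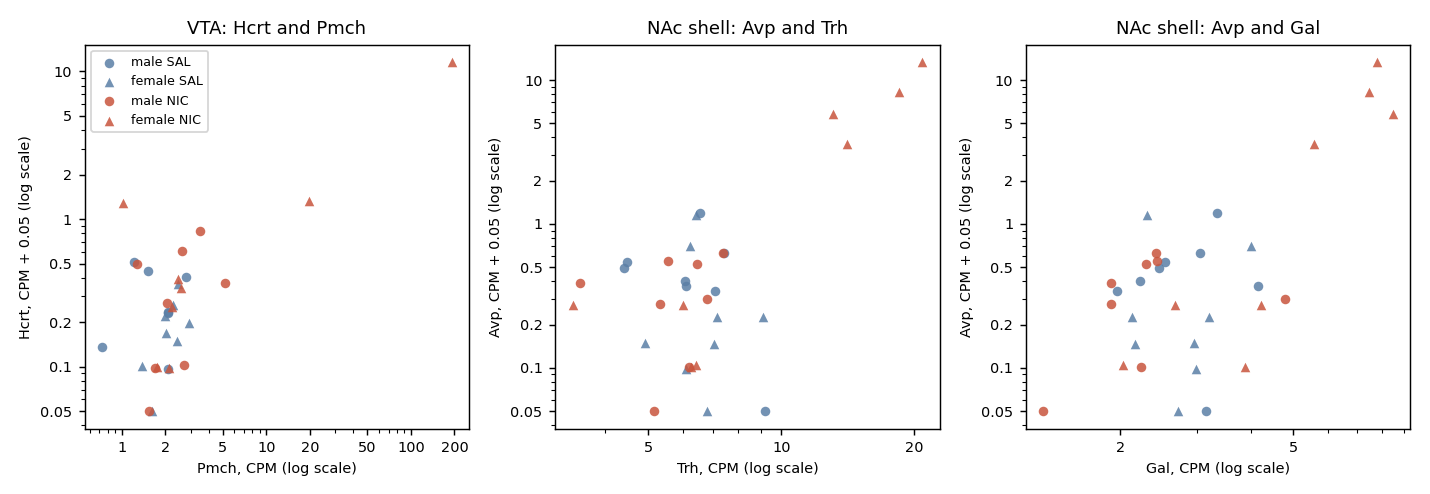
Each point is 1 library on log axes in CPM (Avp and Hcrt plus 0.05): Hcrt against Pmch in the VTA, and Avp against Trh and against Gal in the NAc shell, with circles for males and triangles for females. Female VTA NIC 7 is highest in both Hcrt (11.5 CPM) and Pmch (192 CPM), and the 4 libraries with Avp from 3.56 to 13.3 CPM are also the 4 highest for Trh and for Gal.

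Regions were compared next, over sexes and treatments, in one fit of 12 groups. Pomc was 1.84-fold higher in the VTA than in the NAc core (log2 difference 0.88 ± 0.17, adjusted p = 1.78e-06) and 1.93-fold higher than in the shell (0.95 ± 0.17, adjusted p = 2.57e-07), and core and shell gave 0.07 ± 0.17 (adjusted p = 0.795). Of all genes, 81.6% differed between VTA and core, 80.8% between VTA and shell and 32.3% between core and shell at an adjusted p under 0.05, so that a regional difference was the rule. In SAL rats alone the Pomc difference was smaller, 0.20 from the core (adjusted p = 0.131) and 0.39 from the shell (adjusted p = 0.00407). Over both treatments, Pomc in the VTA exceeded that in the shell in 27 of 31 rats and that in the core in 23 of 30. Avp gave no regional difference, with adjusted p-values from 0.103 to 0.338. Hcrt gave a log2 difference of core minus shell of -0.98 ± 0.40 (adjusted p = 0.0503), with adjusted p-values over the alternatives from 0.0390 with DESeq2 to 0.604 in SAL rats alone. In SAL rats alone Hcrt was lowest in the VTA, at 0.188 ± 0.136 CPM (SD) against 0.490 ± 0.432 in the core and 0.512 ± 0.532 in the shell, and the log2 difference from the shell was -1.43 (adjusted p = 0.00774).

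Between the sexes, Hcrt in the NAc core was 0.567 ± 0.419 CPM (SD, n = 15) in females and 0.144 ± 0.129 CPM (n = 16) in males. This log2 difference of 1.87 ± 0.43 had an adjusted p of 0.0011 in a region where 32.9% of genes differed between the sexes. In the same comparison, 4 of 8 other hypothalamic peptide genes were higher in females and 2 lower, 3 of 5 choroid plexus genes were higher, and so were the ependymal gene Ccdc153 (1.26 ± 0.16) and the pituitary gene Lhb (0.53 ± 0.14), each with an adjusted p under 0.05. These listed genes were matched through the study's tables of changed genes, so their counts are not comparable with the 32.9%. The part of these genes in the Hcrt difference was not tested. The same difference was 0.86 ± 0.60 in the shell (adjusted p = 0.324; 21% of genes called) and 1.29 ± 0.70 in the VTA (adjusted p = 0.317; 2.33% called). Pomc and Avp gave no adjusted p under 0.05 between the sexes in any region, with Avp in the shell the nearest (log2 difference 1.75 ± 0.76, adjusted p = 0.0983). Male and female libraries shared only preparation batch L, so that sex and batch cannot be told apart.

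Cartpt was counted in every library and was highest in the NAc shell. It stood at 93.1 ± 33.1 CPM (SD, n = 32) there and 49.0 ± 24.1 CPM (n = 31) in the core, and shell exceeded core in 29 of 31 rats. The log2 difference of core minus shell was -0.97 ± 0.25 (adjusted p = 0.00149). In the VTA it was 38.8 ± 36.1 CPM (n = 31) and ranged from 1.38 to 162 CPM, a wider relative spread (coefficient of variation 93.2%) than in the core (49.1%) or the shell (35.5%). The log2 difference of VTA minus shell was -1.27 ± 0.25 (adjusted p = 5.18e-06). VTA and core differed by -0.30 ± 0.25 (adjusted p = 0.268), but with the rat as a replicate block by -0.61 (adjusted p = 0.0116), and VTA was below core in 20 of 30 rats. Male NAc shell SAL 1, the library with little Drd2, had Cartpt at 0.939 CPM while the next lowest shell library had 36.0 CPM, and male NAc core SAL 1 had the lowest core value at 10.8 CPM. Without the 3 libraries that stood apart the core minus shell difference was -0.99.

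**Figure D4:**
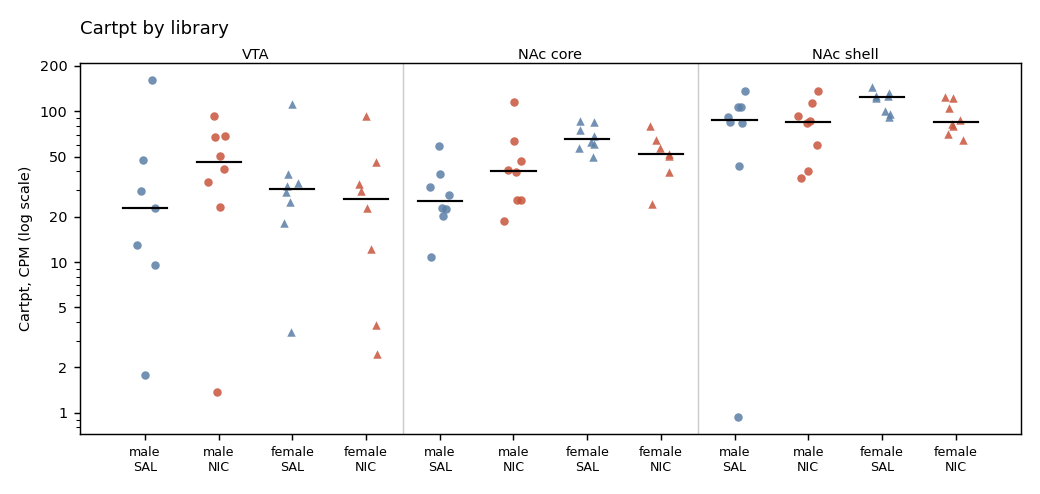
Cartpt level (CPM, log y axis) in each of 94 libraries by region, sex and treatment (x axis), with circles for males, triangles for females and lines for medians. NAc shell libraries lie between 36.0 and 144 CPM except for male SAL rat 1 at 0.939 CPM, and VTA libraries spread from 1.38 to 162 CPM.

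With NIC, Cartpt was lower in the female NAc shell, where NIC libraries had 64.6 to 125 CPM (median 85.04) and SAL libraries 92.3 to 144 CPM (median 124). The log2 difference was -0.35 ± 0.13 (edgeR p = 0.0166, adjusted p = 0.466; exact permutation p = 0.0269), and 5 of 8 NIC libraries lay below the lowest SAL library. The 4 rats with high Avp there, 8, 6, 1 and 2, had Cartpt at 64.6, 70.5, 79.7 and 87.2 CPM, and rats 4, 5, 3 and 7 had 82.9, 105, 122 and 125 CPM. All 7 striatal projection neuron genes tested, Drd1, Drd2, Rgs9, Ppp1r1b, Pdyn, Adora2a and Tac1, were also lower in this comparison with an unadjusted p under 0.05 (named in full after their values were seen; median log2 difference -0.36, against 0.01 over all genes), as were 4.88% of all genes. The 7 were testable only because the study's tables of changed genes name them, so their count is not comparable with that share. In the female core the Cartpt difference was -0.38 ± 0.18 (adjusted p = 0.778), with NIC libraries at 24.1 to 79.5 CPM and SAL libraries at 49.6 to 85.9 CPM. In the male core the sign was opposite, 0.68 ± 0.34 (adjusted p = 0.515), and the value was 0.35 when NIC rat 9 (115 CPM) was left out and 0.56 ± 0.33 (adjusted p = 0.550) without male NAc core SAL 1. The interaction of sex and treatment in the core was -1.06 ± 0.42 (adjusted p = 0.516; 8.89% of genes had an unadjusted p under 0.05), and -0.93 without male NAc core SAL 1. In the male shell the difference was -0.01 ± 0.47, and -0.20 without male SAL 1. The VTA gave 0.24 ± 0.70 in males and -0.27 ± 0.63 in females, and leaving out 1 rat moved these between 0.03 and 1.18 and between -0.78 and 0.23.

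Female NAc core libraries had more Cartpt than male ones, 60.7 ± 16.8 CPM (SD, n = 15) against 38.0 ± 25.0 CPM (n = 16), a log2 difference of 0.72 ± 0.23 (adjusted p = 0.0153). It was 0.62 (adjusted p = 0.0276) without male NAc core SAL 1, and 0.60 (adjusted p = 0.119) when the library with VTA-like Th, female NAc core NIC 1, was added. All 7 striatal projection neuron genes tested were also higher in females of the core with an adjusted p under 0.05, where 32.9% of all genes were called in either direction, with a median log2 difference of 0.72 against 0.01 over all genes, and of 0.61 without male NAc core SAL 1. These 7 were also matched through the study's tables of changed genes, so their count is not comparable with that share. The part of striatal content in the Cartpt difference was not tested. In the shell and the VTA, 0 of the 7 had an adjusted p under 0.05 between the sexes, against 21% and 2.33% of all genes. For Cartpt itself, neither the shell (0.35 ± 0.25, adjusted p = 0.345) nor the VTA (-0.40 ± 0.50, adjusted p = 0.690) passed.

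The genes most like Cartpt and Pomc over libraries were sought in each region. There, log2 CPM was centred on the sex and treatment group and the 3 genes of highest Pearson r were taken from 7924 tested genes with a symbol, as a description over 31 or 32 libraries that share depth and dissection. In the NAc shell they were Slc35d3 (r = 0.984), Adora2a, the adenosine receptor of indirect pathway neurons (0.980), and Tac1 (0.970), and without male NAc shell SAL 1 these were 0.902, 0.869 and 0.861. In the NAc core they included Fam207a (0.825) and Nmb, the neuromedin B precursor (0.809). In the VTA they were Patj, a tight junction scaffold (0.776), Tac1 (0.735) and Ctxn3 (0.718). For Pomc the highest were Bola1 (0.609), Adam32 (0.604) and Mnat1 (0.583) in the VTA, Epas1 (0.742), Sipa1 (0.731) and Arap3 (0.709) in the core, and Tor4a (0.596), Pcbd2 (0.595) and LOC103694857 (0.583) in the shell; none is a neuropeptide. Avp and Hcrt had 10 or more counts in under 50% of the libraries of each region, and no such genes were sought for them.

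**Figure D5:**
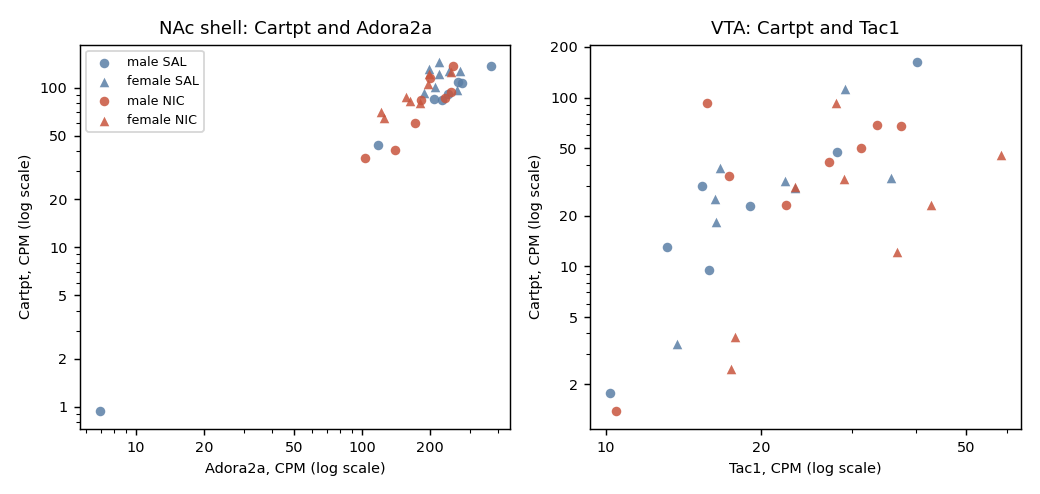
Each point is 1 library on log axes in CPM: Cartpt against Adora2a in the NAc shell and against Tac1 in the VTA, with circles for males and triangles for females. In the shell the points lie along one line with male SAL rat 1 (0.939 CPM) far below the rest, and in the VTA Cartpt ranges from 1.38 to 162 CPM around a looser relation.

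Relations among the 4 genes were computed over rats. Values fell into separate clusters (a gap over 1 log2 unit) for Pomc in the VTA, where 3 libraries stood above the other 28, for Avp in the NAc shell (4 above 28) and for Cartpt in the VTA (5 below 26), and there only the larger cluster was used. None of 18 relations between 2 genes within a region had an adjusted permutation p under 0.05; the strongest was Pomc with Hcrt in the VTA (28 libraries, r = 0.42, adjusted permutation p = 0.521; rho = 0.38, adjusted permutation p = 0.757). Of 12 relations of a gene with itself in another region of the same rat, Pomc in VTA and NAc shell had r = -0.53 (28 rats, adjusted permutation p = 0.0422) and rho = -0.46 (adjusted permutation p = 0.172), and r = -0.50 without the 2 rats farthest on the VTA axis. This relation did not hold over all 31 rats, the 3 high ones included (r = -0.16, permutation p = 0.400; rho = -0.33, permutation p = 0.0750). For Cartpt in core and shell r was 0.41 (31 rats, adjusted permutation p = 0.210; rho = 0.31, adjusted permutation p = 0.453), and 0.39 without the 2 farthest rats. For Cartpt in VTA and core r was 0.35 in the 26 rats of the larger VTA cluster (adjusted permutation p = 0.311). Over all 30 rats, the low cluster included, it was 0.58 (permutation p = 0.00112; rho = 0.44, permutation p = 0.0153), and 0.45 without the 2 farthest rats. For Cartpt in VTA and shell r was -0.09 in the larger cluster and 0.41 over all 31 rats (permutation p = 0.0319; rho = 0.29, permutation p = 0.110), and 0.11 without the 2 farthest rats.

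Of 20 other hypothalamic peptide genes listed, 8 could be matched to an identifier and were tested. Identifiers came from the study's tables of changed genes, so counts among these 8 are not comparable with shares over all genes. Between NIC and SAL none had an adjusted p under 0.05. Crh (0.52 ± 0.19), Gal (0.92 ± 0.26) and Trh (0.74 ± 0.29) had higher and Tac3 (-0.32 ± 0.08) lower log2 levels in the female NAc shell with an unadjusted p under 0.05, and Pmch (3.70 ± 1.06), Nts (0.54 ± 0.21) and Sst (0.56 ± 0.20) higher levels in the female VTA. Of all genes, 5.25% were higher and 4.88% lower in the female shell and 4.04% higher in the female VTA by that criterion. Female VTA NIC 2 had the highest Nts of the VTA, at 29.4 CPM against 15.2 CPM in the next library, and without it the differences were 3.89 for Pmch, 0.32 for Nts and 0.47 for Sst. In males, Sst in the core (-0.18 ± 0.06, and -0.20 without male NAc core SAL 1) had such a p, and so did Crh in the shell (0.65 ± 0.19, adjusted p = 0.861) once male NAc shell SAL 1 was left out. In females the list medians were 0.46 in the VTA, 0.29 in the shell and -0.10 in the core, and in males 0.39 in the VTA, -0.11 in the shell and -0.02 in the core, whereas the median over all genes lay between -0.01 and 0.02. By region, Pmch (2.09 ± 0.28), Adcyap1 (1.89 ± 0.19) and Gal (1.44 ± 0.15) were higher in the VTA than in the NAc core, and Sst (-2.60 ± 0.08), Tac3 (-2.22 ± 0.20), Trh (-0.55 ± 0.17), Nts (-0.49 ± 0.16) and Crh (-0.30 ± 0.13) lower, all 8 with an adjusted p under 0.05. Of all genes, 41.3% were higher and 40.3% lower in the VTA than in the core by that criterion.

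Receptors of the peptides were compared by region and by treatment. Hcrtr1 and Hcrtr2, the orexin receptors, were higher in the VTA than in the NAc core by 2.17 ± 0.12 and 1.95 ± 0.11 on the log2 scale, and Mc4r had a difference of -1.49 ± 0.12 (adjusted p = 3.59e-20). With Avpr1a, a vasopressin receptor named after its values were seen (1.60 ± 0.14), these were the 4 of 13 listed receptors that could be tested, and all 4 had an adjusted p under 0.05 between VTA and core, as did 81.6% of all genes. In the female NAc shell Hcrtr2 (0.54 ± 0.20) and Avpr1a (0.75 ± 0.27) were higher with NIC, and in the female VTA Mc4r (0.68 ± 0.27), each with an unadjusted p under 0.05 and an adjusted p from 0.466 to 0.509. Among 7 processing genes, 5 were lower and 1 higher in the VTA than in the core; Scg5, Cpe and Chgb had log2 differences of -0.47, -0.45 and -0.47, and the 6 of 7 called stand beside the same 81.6%. With NIC, 4 of the 7 were lower in the male core, 2 higher in the female VTA and 1 higher in the female shell at an unadjusted p under 0.05. Of all genes, 4.06% were lower in the male core by that criterion, and 4.04% and 5.25% were higher in the female VTA and shell. Receptor and processing genes were matched through the study's tables of changed genes, so their counts are not comparable with shares over all genes.

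Markers of other cells that the dissections could hold gave no adjusted call with NIC in any of the 6 comparisons. At an unadjusted p under 0.05, the female NAc shell had 1 of 3 habenula and interpeduncular genes higher, 1 of 6 dopaminergic neuron genes higher (Slc18a2, 1.19 ± 0.51, named after its values were seen), the pituitary gene Lhb higher (0.49 ± 0.20) and 0 of 5 choroid plexus, 4 astrocyte and 3 microglia genes called. The female VTA had the hypothalamic transcription factor Lhx9 higher (1.26 ± 0.56, and 0.38 ± 0.39 without female VTA NIC 2, which had 5.97 CPM against 2.03 CPM in the next library), 1 of 7 striatal genes higher (0 without that library), and 1 of 4 astrocyte and 1 of 3 microglia genes lower, while its ependymal gene Ccdc153 (1.04 ± 0.55) was not called. The female NAc core had 1 of 3 microglia genes higher. In males, the VTA had 1 of 5 choroid plexus genes and, as above, Mbp and Mobp lower and 1 dopaminergic and 1 striatal gene higher, the NAc core had Lhx9 (1.24 ± 0.53) and Mobp (0.25 ± 0.09) higher, and the NAc shell had 1 choroid plexus gene lower. Without male NAc core SAL 1, Mbp (0.20 ± 0.07) and Gfap, an astrocyte gene (0.18 ± 0.07), were also higher in the male core at that level. Without male NAc shell SAL 1, the male shell had 2 choroid plexus and 2 of 7 striatal genes lower and 1 habenula and interpeduncular gene higher. In the fits without these libraries, 1267 of 16879 genes in the female VTA, 1726 in the male core and 831 in the male shell had an unadjusted p under 0.05. With the libraries kept, the counts were 1559, 1660 and 415. By the same criterion and with these libraries kept, 3.28% of all genes were lower in the male VTA and 5.2% in the female VTA, 5.78% were higher in the male core and 2.87% in the female core, and in the male shell 1.02% were higher and 1.44% lower. No cortical projection neuron gene of the list could be matched to an identifier, and Lhx9, Lhb and Ccdc153 were the only matched genes of their lists. All marker genes were matched through the study's tables of changed genes, so their counts are not comparable with shares over all genes.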

How the data were processed

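Whole tissue RNA of 3 regions from 32 rats was sequenced. Per the labels and the study's methods, the authors trimmed reads with fastp 0.20.0, quantified them with Salmon 0.12.0 on Rnor version 6 and summed transcripts to genes; the deposited values are estimated counts per gene, rounded by the authors to whole counts. Each library was mapped to sex, region, treatment and rat from its labels. Of 96 libraries 94 were used: female NAc core NIC 1 was left out, and of the pair from male VTA SAL 5, which differed less (chi-square per degree of freedom 3.05) than 21 other pairs (from 9.41), R2 alone was used, so that the rat counts once. No VTA library of male rat 3 was analysed here. Libraries of one group come from different rats.

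The 16879 genes with more than 10 normalized counts in at least 3 libraries were tested with edgeR 4.0.16 (quasi-likelihood test, TMM factors, R 4.3.3) and Benjamini-Hochberg adjustment over all of them: NIC against SAL within sex and region, regions in one fit of 12 groups, sex with treatment as a term, and their interaction. CPM values are TMM-scaled over all libraries, and log2 CPM used a prior count of 2. Single values were also compared by two-sided exact permutation tests and correlations by permutation (100000 resamples; scipy 1.17.1, Python 3.11.15). Alternatives were DESeq2 1.42.0, its size factors, other count filters, every mapped library, the 12 groups fitted together, preparation batch as a covariate, SAL rats only, libraries left out, and the rat as a replicate block. The fit was tested on simulated counts. Regions of one rat share its number by design, and deviations of same-rat libraries from their group means had median correlations over genes of 0.034 (VTA and core), 0.033 (VTA and shell) and 0.087 (core and shell).

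Gene symbols came from the study's tables of changed genes, which matched 53 of the 108 genes in 14 lists; the other 55 were not analysed here. The oligodendrocyte list as a whole and 1 gene most like Cartpt are not reported here; Mbp and Mobp are given as single genes, chosen after their values were seen. Genes named were the 4 precursors, every tested hypothalamic peptide, the 3 genes with the smallest p between VTA and core of each other list, the 3 genes most like each precursor, and region checks. The members and lists were chosen with earlier results of these data known.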

Additional observations from a re-analysis of the deposited data

Results flagged for a closer look

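Dixon's test of the most distant library was applied to CPM in 48 groups of 7 or 8 libraries (4 genes in 12 groups). It flags about 1 in 20 by chance if values are normally distributed, which CPM of low counts need not be. It marked 9 values in 8 libraries, each the highest of its group. No share over all genes stands beside the 9, so they are not read as a surplus over chance. Pomc was far from its group in female VTA NIC 4 at 25.8 CPM and in male VTA SAL 6 at 3.88 CPM. Avp was so in male NAc core NIC 12 at 1.39 CPM (26 counts) and in male VTA NIC 13 at 1.06 CPM (23 counts). Hcrt was so in female VTA NIC 7 at 11.5 CPM and in male NAc shell NIC 14 at 0.957 CPM (20 counts). Cartpt was so in female VTA SAL 15 at 113 CPM, in male NAc core NIC 9 at 115 CPM and in male VTA SAL 6 at 162 CPM. Male VTA SAL 6 was marked for both Pomc and Cartpt. The 4 female NAc shell NIC libraries with high Avp were not marked, since the test looks at 1 distant library in a group.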

How the results depend on the processing

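Of 480 values recomputed under an alternative, 454 kept their direction and side of the threshold, 17 changed sign, 2 lost and 7 gained an adjusted p under 0.05; when 1 library was left out, 352 of 376 log2 differences between NIC and SAL kept their sign. With all 12 groups in one fit, Avp in the female NAc shell (3.73) and Hcrt in the female VTA (3.69) passed, where 2 and 6 of all 16879 genes did. With preparation batch as a covariate the NIC difference turned to 0.26 for Pomc in the female core, -0.0099 in the female shell, 0.00235 in the male core and -0.25 in the male shell, and for Avp to -0.71 in the female core, 0.71 in the male core, 1.19 in the male shell and -0.80 in the male VTA. The cause was not tested. NIC and SAL shared only batch C in each male region, batch J in each female region and also batch L in the female VTA. These batch fits thus rest on few libraries, and treatment and batch largely cannot be told apart. In SAL rats only, Avp turned to 0.051 (core minus shell) and 0.37 (VTA minus shell) and Hcrt to -1.06 (VTA minus core), Pomc fell to 0.20 (VTA minus core) and Hcrt passed at -1.43 (VTA minus shell), with fewer libraries in the fit. Hcrt core minus shell passed with all mapped libraries (-1.02), DESeq2 (-0.999) and without the 3 libraries that stood apart (-1.02). The replicate block made Cartpt VTA minus core -0.61, past the threshold, and changed no other call. The sex difference of Cartpt in the core was 0.60 and did not pass with all mapped libraries.

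Correlations that changed sign without the 2 farthest libraries were Hcrt with Cartpt in the core (0.0096), Pomc with Cartpt (0.019) and Avp with Cartpt (0.017) in the shell, Hcrt in VTA and shell (0.064, and 0.084 with a prior count of 0.5) and Hcrt in core and shell (-0.061). Over all rats, the separate clusters included, Pomc in VTA and core (0.067) and Avp in core and shell (0.020) did so too. Leaving out 1 library gave ranges that cross 0 for Avp in the female core (-0.070 to 0.70), female VTA (-0.11 to 0.43) and male VTA (-0.027 to 0.45), Cartpt in the female VTA (-0.78 to 0.23) and male shell (-0.20 to 0.13), Hcrt in the male VTA (-0.039 to 0.53), and Pomc in the female core (-0.20 to 0.024) and male shell (-0.082 to 0.12). Avp and Hcrt, at a median of 7 and 5 counts a library, are limited by depth outside the few high libraries.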
